A study of Mus musculus with 8 samples.

Results

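The genes described here are 10 transcription factors of the AP-1 family and the immediate early response: Fos, Fosb, Fosl1, Fosl2, Jun, Junb, Jund, Atf3, Egr1 and Myc. They were chosen by symbol, are 10 of the 52636 genes in the deposited table, and all 10 passed the filter on low values (at least 1 CPM, reads scaled for library size, in 2 or more libraries), as did 16180 genes in all. RNA was sequenced from esophageal organoids, cultures of epithelial cells from the esophagi of wild-type mice that were grown in matrigel with KSFM medium for 13 days. Medium was changed every 2 days, and the ligands or inhibitor were then given for 72 h with fresh additions at intervals of 24 h. There were 4 groups of 2 libraries. The first received TGFb1 at 1 ng/ml with BMP4 at 20 ng/ml, the second TGFb1 alone at 1 ng/ml, and the third BMP4 at 20 ng/ml with 500 nM A8301, which blocks the type I receptors of TGFb. Control organoids, called inhibitor here, received A8301 alone at 500 nM. The labels list no inhibitor for either TGFb1 group, so wherever TGFb1 organoids are set against organoids with A8301, the added ligand and the missing inhibitor cannot be told apart. The labels do not say whether replicate libraries derive from separate mice or cultures, so p-values measure the spread between these libraries, which may be technical.

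AP-1 is a dimer of a JUN protein with a FOS, JUN or ATF protein, joined through leucine zippers, that binds short DNA sites in the promoters and enhancers of genes for growth, matrix turnover and keratinocyte differentiation. Many of its genes are immediate early genes, which serum, growth factors or stress switch on within minutes through MAP kinases, without new protein synthesis, and whose RNA is short-lived. Myc binds DNA with MAX and drives ribosome production and growth, and TGFb is known to repress Myc in epithelial cells through SMAD proteins. The RNA here was taken at the end of the treatment.

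The scaled totals of the libraries lay between 20011215 and 20013233, and the depth inferred from the low values between 28600000 and 43600000 reads. Every member lay far above the counting limit, with a lowest value of 3.00 CPM, for Fosb. The 5 basal squamous markers summed to 15370 and 12680 CPM with TGFb1 and BMP4, and 13360 and 12780 CPM with TGFb1. With BMP4 and inhibitor they summed to 14660 and 13730 CPM, and with inhibitor to 9552 and 9956 CPM, below all other libraries. The 4 smooth muscle markers were each under 1 CPM. Fibroblast markers, 8 of 8 detected, summed to 268 and 1373 CPM with TGFb1 and BMP4, 251 and 840 CPM with TGFb1, 65.1 and 263 CPM with BMP4 and inhibitor, and 21.4 and 75.7 CPM with inhibitor. They were thus higher in replicate 2 of each group and, between libraries of the same replicate number, higher in both TGFb1 groups. Skeletal muscle markers, 9 of 9 found and Myh4 under 1 CPM throughout, ran the same way. They summed to 124 and 616 CPM with TGFb1 and BMP4, 77.55 and 328 CPM with TGFb1, 60.2 and 249 CPM with BMP4 and inhibitor, and 16.5 and 86.7 CPM with inhibitor. TGFb1 replicate 1 was thus below replicate 2 of both groups with A8301. Columnar keratins summed to 1750 and 1635 CPM with TGFb1 and BMP4, 2071 and 1698 CPM with TGFb1, 247 and 114 CPM with BMP4 and inhibitor, and 30.8 and 29.4 CPM with inhibitor. Suprabasal squamous markers summed to 2939 and 2705 CPM with TGFb1 and BMP4, 9196 and 11650 CPM with TGFb1, 5472 and 5543 CPM with BMP4 and inhibitor, and 11910 and 9446 CPM with inhibitor. This sum hides genes that ran in opposite directions. Against inhibitor, the log2 fold change of CPM + 1 with TGFb1 was 3.039 for Ivl and -5.445 for Lor. With both ligands it was 2.035 for Ivl and -7.234 for Lor. Immune markers, 6 of 6 found with Ptprc, Adgre1, Cd3e and Cd79a each under 1 CPM in every library, summed to 17.2 and 65.5 CPM with TGFb1 and BMP4, 27.3 and 73.1 CPM with TGFb1, 53.2 and 54.7 CPM with BMP4 and inhibitor, and 131 and 110 CPM with inhibitor. They were highest with inhibitor, where the group means of Fos, Fosl1, Atf3, Egr1 and Myc were highest too, and those of the remaining members were not. Mitochondrial transcripts summed to 3656 and 6282 CPM with TGFb1 and BMP4, 4550 and 6308 CPM with TGFb1, 4139 and 6555 CPM with BMP4 and inhibitor, and 6567 and 6837 CPM with inhibitor, so replicate 1 was low in the 3 groups that received a ligand. Endothelial markers summed to 4.30 CPM or less in every library. The part of these cell types and transcripts in the results was not tested, and in bulk RNA fewer cells of a type and less RNA per cell cannot be told apart.

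The promoters of 4 members are shown as examples of genes that differed in outcome. Fosb and Jun were called in some comparisons, and Atf3 only with changed settings, among them the replicate block. Fos was called in none, with or without the block. The printed promoters run from 250 bases before to 50 bases after the RefSeq start, 5′ to 3′ on the gene's strand, on build GRCm38.p6. Fosb is at chr7:19309996-19310295 (minus strand), Fos at chr12:85473640-85473939 (plus strand), Jun at chr4:95052173-95052472 (minus strand) and Atf3 at chr1:191183284-191183583 (minus strand). Capitals mark matches, on either strand, to the 5-base core TGACG or to the 8-base site TGACNTCA, which JUN and ATF proteins are known to bind.
Fosb: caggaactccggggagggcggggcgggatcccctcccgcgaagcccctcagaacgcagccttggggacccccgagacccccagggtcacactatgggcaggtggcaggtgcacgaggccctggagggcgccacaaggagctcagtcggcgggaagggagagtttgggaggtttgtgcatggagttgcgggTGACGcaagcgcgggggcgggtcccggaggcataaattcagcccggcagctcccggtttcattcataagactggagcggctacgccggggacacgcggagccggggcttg
Fos: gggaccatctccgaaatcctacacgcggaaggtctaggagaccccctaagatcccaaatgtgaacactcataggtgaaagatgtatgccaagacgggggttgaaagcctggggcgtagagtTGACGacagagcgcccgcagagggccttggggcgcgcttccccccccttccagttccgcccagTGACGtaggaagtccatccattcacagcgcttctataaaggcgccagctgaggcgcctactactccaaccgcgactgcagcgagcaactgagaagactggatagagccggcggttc
Jun: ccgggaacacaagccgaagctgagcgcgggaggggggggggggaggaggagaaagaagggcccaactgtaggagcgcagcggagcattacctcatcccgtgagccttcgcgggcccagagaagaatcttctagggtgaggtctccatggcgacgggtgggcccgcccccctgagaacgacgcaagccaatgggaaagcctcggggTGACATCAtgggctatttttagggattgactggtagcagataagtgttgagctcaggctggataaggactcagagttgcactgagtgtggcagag
Atf3: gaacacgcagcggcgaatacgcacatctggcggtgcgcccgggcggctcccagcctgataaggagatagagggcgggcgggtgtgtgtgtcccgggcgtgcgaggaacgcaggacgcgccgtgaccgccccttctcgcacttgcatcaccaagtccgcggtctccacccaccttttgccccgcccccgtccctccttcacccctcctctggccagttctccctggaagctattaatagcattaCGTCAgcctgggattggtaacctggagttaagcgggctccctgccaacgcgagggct
The core began at position -60 from the start in Fosb, at -129 and -66 in Fos and at -7 in Atf3, where it lies on the other strand. The 8-base site began at -45 in Jun, which holds no core, so neither marked sequence was in all 4 promoters. The GC box GGGCGG, not marked here, was in all 4, and in 35.6% of promoters of this length. Junb, not printed, also held the core, at -106. The core was in 20.8% and the 8-base site in 8.84% of 32817 promoters of this length. RefSeq promoters were found for 7 members (also Fosl2, Junb and Jund). None of these 7 windows held the AP-1 site TGANTCA (in 7.81% of all promoters) or the full element TGACGTCA (1.79%). The windows of Atf3 and Fosl2 (chr5:32136222-32136521) lie inside the gene positions given below, past their 5′ ends at 191218039 and 32135801. That of Jund (chr8:70697489-70697788) ends before its gene position begins, at 70698949. For these genes the 5′ end of that position was not searched. A match is a description of these letters only.

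Across the 10 genes, the values fell into 3 patterns. Myc was low in both TGFb1 groups, and Fosl1, Atf3 and Egr1 were also lower there than with inhibitor but varied widely between libraries. Fosb was highest with TGFb1 alone. Fos, Fosl2, Jun, Junb and Jund made up the rest, with smaller differences between group means. Against inhibitor, 1 of 10 members, Fosb, rose with TGFb1 and 2, Fosl1 and Myc, fell, by limma with Benjamini-Hochberg adjustment over all tested genes at 0.05, where 40.0% of tested genes were called (20.0% higher and 20.0% lower). With both ligands 1, Jun, rose and 1, Myc, fell, where 46.0% of tested genes were called, 27.6% higher and 18.4% lower (60.0% of calls were higher, and 48.3% with median-of-ratios scaling). BMP4 with inhibitor changed 0 of 10 by limma, where 8.41% of tested genes were called (5.49% higher and 2.91% lower), and 1 member, Fosl2, had an unadjusted p under 0.05. Libraries of the same replicate number deviated together from their group means, but the labels do not say what they share. With the replicate number taken as a pairing, as a block, the fit called 6 members with TGFb1, 2 higher and 4 lower, where 53.1% of tested genes were called (26.7% higher and 26.4% lower). It called 6 with TGFb1 and BMP4, 2 higher and 4 lower, where 58.9% of tested genes were called (35.2% higher and 23.7% lower), and 1 higher with BMP4 and inhibitor, where 21.6% were (11.8% higher and 9.85% lower). The share of members called was below that of all tested genes in all 3 comparisons without the block, and above it in both TGFb1 comparisons with the block, so it gives no result about the members as a group. These 3 comparisons share the inhibitor libraries. In them the libraries of the 2 groups did not overlap for 8 of 10 members with both ligands, 6 with TGFb1 and 5 with BMP4 and inhibitor. Of all tested genes this held for 76.5%, 76.5% and 57.9%, and for 52.8% to 64.8% between the other pairs of groups. Statements below that libraries lay apart are therefore descriptions.

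**Figure D1:**
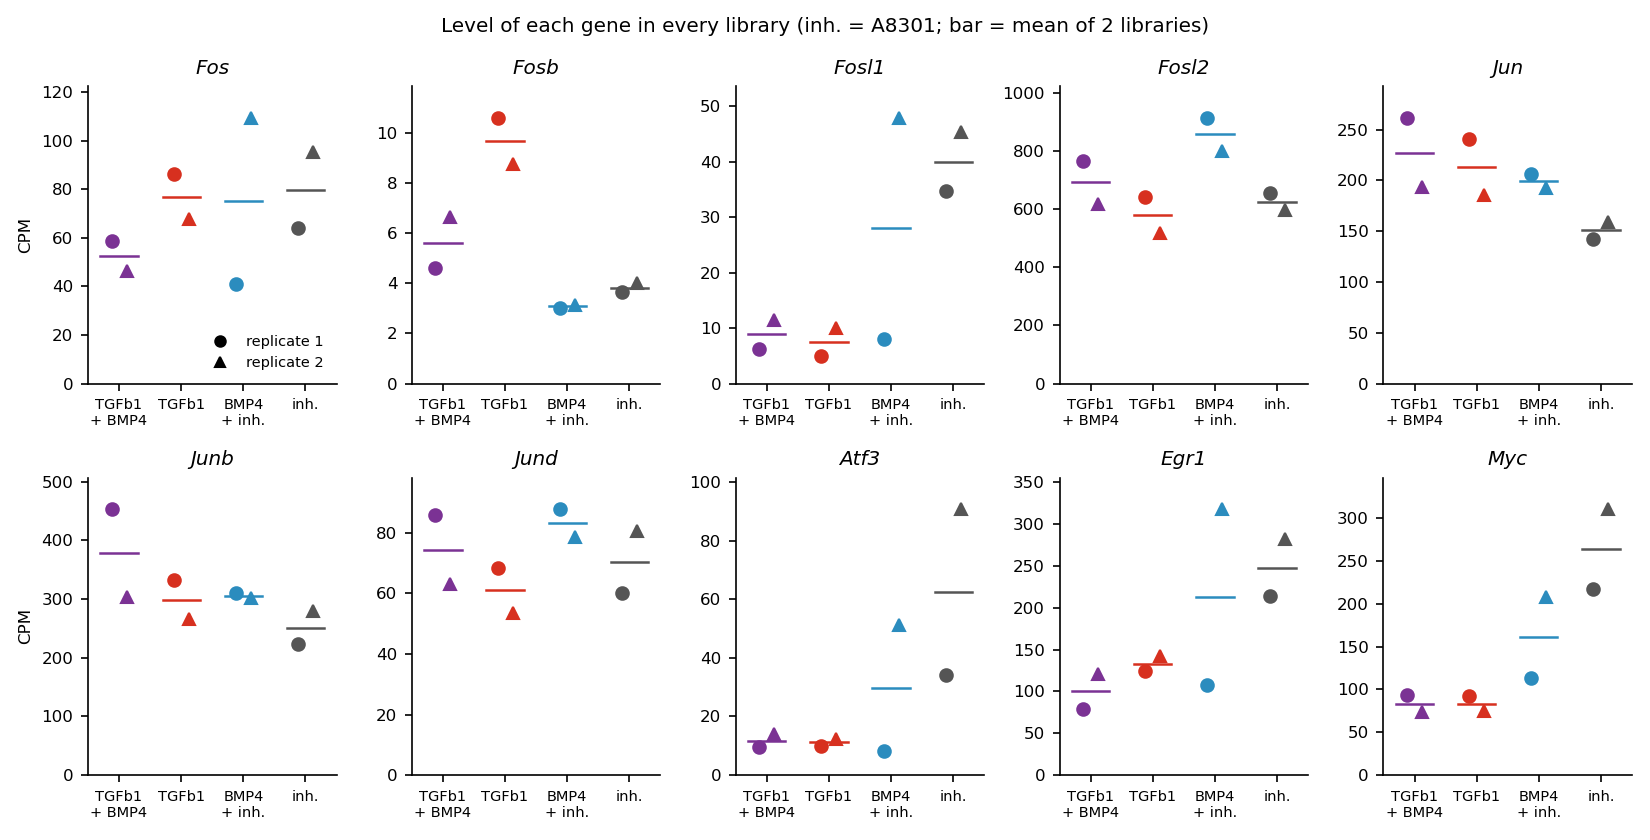
Level of each of the 10 genes in CPM (linear axis from 0) in every library, with circles for replicate 1, triangles for replicate 2 and bars for the mean of 2 libraries. Myc lies at 73.4 to 93.2 CPM in the 4 TGFb1 libraries and at 217 and 310 CPM with inhibitor, while Fosl1, Atf3 and Egr1 show a wide gap between the 2 libraries of BMP4 and inhibitor.

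Fosb encodes a FOS protein induced by growth factors and stress (chr7:19302696-19310051, minus strand, GRCm38, as for all gene positions here). Its level was 4.60 and 6.65 CPM with TGFb1 and BMP4, 10.6 and 8.74 CPM with TGFb1, 3.00 and 3.15 CPM with BMP4 and inhibitor, and 3.65 and 4.00 CPM with inhibitor. All 4 TGFb1 libraries were above all 4 libraries with A8301, and those with TGFb1 alone were above those with both ligands. With TGFb1, Fosb rose over inhibitor by a log2 fold change (of CPM + 1, as for all fold changes here) of 1.14 ± 0.21 (SE from limma, adjusted p = 0.00699). Without TGFb1 replicate 1 the adjusted p was 0.051. Over BMP4 with inhibitor, Fosb rose with TGFb1 by 1.38 ± 0.21 (adjusted p = 0.00548), the 1 member of 10 called there, where 23.4% of tested genes were called (35.6% with the replicate block), and the call held with each of the 8 libraries left out. With both ligands the difference from inhibitor was 0.44 ± 0.21 (limma adjusted p = 0.121). With both ligands against BMP4 and inhibitor it was 0.68 ± 0.21 (adjusted p = 0.0496), the 1 member called where 28.2% of tested genes were (41.1% with the block). That call held in 1 of 8 fits with a library left out, the one without replicate 1 of TGFb1 and BMP4, and the other 7 gave adjusted p from 0.0719 to 0.207. It was also lost with median-of-ratios scaling (adjusted p = 0.0753). Both ligands against TGFb1 alone gave -0.70 ± 0.21 (adjusted p = 0.144, and 0.087 with the replicate block).

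Fos, the founding partner of JUN in AP-1 (chr12:85473890-85477273, plus strand), is the immediate early gene most used as a sign of recent stimulation. Fos was at 58.5 and 46.2 CPM with TGFb1 and BMP4, 86.3 and 67.6 CPM with TGFb1, 40.8 and 109 CPM with BMP4 and inhibitor, and 64.1 and 95.2 CPM with inhibitor. The libraries of TGFb1 alone lay inside the range of the inhibitor libraries, and both the lowest and the highest library were those of BMP4 and inhibitor. Fos passed the threshold in none of the 7 comparisons by either fit. Both libraries of TGFb1 and BMP4 were below both inhibitor libraries, by a log2 fold change of -0.58 with a 95% interval from -1.64 to 0.48 (limma adjusted p = 0.314).

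Fosl1 encodes FRA1, a FOS protein without the strong activation domain of FOS that is known from migrating and wounded epithelia (chr19:5447547-5455946, plus strand). It was at 6.30 and 11.5 CPM with TGFb1 and BMP4, 5.05 and 9.99 CPM with TGFb1, 8.05 and 47.9 CPM with BMP4 and inhibitor, and 34.7 and 45.4 CPM with inhibitor. All 4 TGFb1 libraries were below both inhibitor libraries, and replicate 1 of BMP4 and inhibitor sat among the TGFb1 libraries. With TGFb1, Fosl1 fell against inhibitor by a log2 fold change of -2.32 ± 0.76 (limma adjusted p = 0.0495, and 0.0058 with the replicate block). The call held without either library of BMP4 and inhibitor. It was lost without any other library, with adjusted p of 0.0623 and 0.0614 without replicates 1 and 2 of TGFb1 and BMP4, 0.194 and 0.0765 without those of TGFb1, and 0.128 and 0.188 without those of inhibitor. Both ligands gave -2.09 ± 0.76 (adjusted p = 0.0612, 0.00751 with the replicate block, 0.0421 with median-of-ratios scaling, and 0.00846 and 0.00852 without replicates 1 and 2 of BMP4 and inhibitor). BMP4 with inhibitor differed from inhibitor by -0.95 ± 0.76 (adjusted p = 0.467). It was -2.17 without replicate 2 of BMP4 and inhibitor (adjusted p = 0.0383) and 0.27 without replicate 1 (adjusted p = 0.86).

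Fosl2 encodes FRA2, the FOS protein expressed in differentiating keratinocytes (chr5:32135801-32157842, plus strand). It was at 768 and 619 CPM with TGFb1 and BMP4, 642 and 517 CPM with TGFb1, 915 and 801 CPM with BMP4 and inhibitor, and 656 and 597 CPM with inhibitor. Both libraries of BMP4 and inhibitor were above the other 6. The difference of BMP4 with inhibitor from inhibitor was 0.45 ± 0.17 (limma adjusted p = 0.147), and with the replicate block it was called (adjusted p = 0.0213). TGFb1 against BMP4 with inhibitor gave -0.57 ± 0.17 (adjusted p = 0.0519, and 0.00532 with the block), and both ligands against BMP4 with inhibitor -0.31 ± 0.17 (adjusted p = 0.21, and 0.0404 with the block).

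Per exonic kilobase, which allows genes to be set side by side, Fosl2 was the most abundant FOS member in every library. It made up 73.4% and 70.8% of the summed FOS family CPM per kb with TGFb1 and BMP4, 61.9% and 60.4% with TGFb1, 81.3% and 54.0% with BMP4 and inhibitor, and 60.1% and 49.3% with inhibitor. The Fosl1 share was 2.87% and 6.28% with TGFb1 and BMP4, 2.32% and 5.56% with TGFb1, 3.40% and 15.4% with BMP4 and inhibitor, and 15.1% and 17.8% with inhibitor. Each TGFb1 library thus had a smaller Fosl1 share than either inhibitor library. Fos held 14.9% to 34.2% over the 8 libraries and Fosb at most 1.58%.

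**Figure D2:**
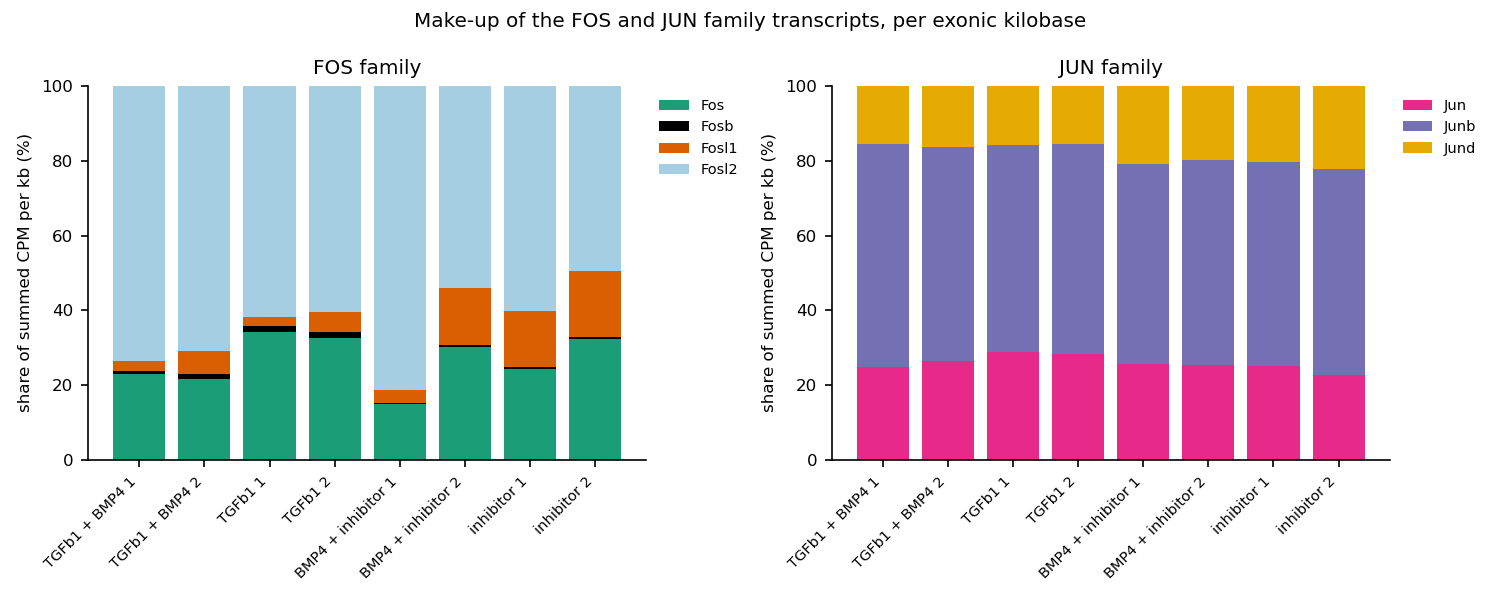
Share (%) of each gene in the summed CPM per exonic kilobase of the FOS family (left) and the JUN family (right), 1 stacked bar per library, numbered by replicate. The Fosl1 share is 15.1% and 17.8% with inhibitor and 6.28% or less in the 4 TGFb1 libraries, and Junb makes up 53.4% to 59.6% of the JUN family.

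Jun, the stress-responsive partner that is phosphorylated by JNK (chr4:95049034-95052222, minus strand), was at 262 and 193 CPM with TGFb1 and BMP4, 240 and 185 CPM with TGFb1, 206 and 193 CPM with BMP4 and inhibitor, and 143 and 160 CPM with inhibitor. Both inhibitor libraries were below the other 6. With both ligands Jun rose over inhibitor by 0.57 ± 0.19 (limma adjusted p = 0.0432), against a shift of -0.13 in the median gene between the 2 scalings. With median-of-ratios scaling it was 0.43 and missed the threshold (adjusted p = 0.157). The call was also lost without either library of BMP4 and inhibitor (adjusted p = 0.0597 and 0.0592 without replicates 1 and 2), without replicate 1 of TGFb1 and BMP4 (0.189), and without either inhibitor library (0.176 and 0.0974). TGFb1 alone gave 0.48 ± 0.19 (adjusted p = 0.0799, and 0.0364 with the replicate block), and BMP4 with inhibitor 0.40 ± 0.19 (adjusted p = 0.226).

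Junb, which restrains growth and can oppose JUN (chr8:84974484-84978718, minus strand), was at 453 and 304 CPM with TGFb1 and BMP4, 332 and 265 CPM with TGFb1, 309 and 301 CPM with BMP4 and inhibitor, and 223 and 279 CPM with inhibitor. The libraries of both ligands were above both inhibitor libraries, by 0.57 ± 0.22 (limma adjusted p = 0.0724, 0.0464 with the replicate block, and 0.0267 without replicate 2 of TGFb1 and BMP4). Jund, the JUN member known for steady expression (chr8:70698949-70700616, plus strand), was at 85.9 and 63.0 CPM with TGFb1 and BMP4, 68.4 and 53.6 CPM with TGFb1, 87.8 and 78.7 CPM with BMP4 and inhibitor, and 60.3 and 80.8 CPM with inhibitor. Its groups overlapped in most pairs, and it passed the threshold in none of the 7 comparisons by either fit. Jun is overlapped by its antisense gene Junos (16.5 to 35.7 CPM), Junb by Prdx2 (149 to 241 CPM) and Jund by Gm11175 (33.0 to 54.4 CPM), all on the opposite strand. Fosl1 is overlapped by Ccdc85b (2.698 to 5.597 CPM) and Atf3 by Gm24748 (0 CPM throughout), also on the opposite strand. Fosl1 itself was at 5.05 to 11.5 CPM in the TGFb1 libraries, and the part of shared reads in its values was not tested. The strand setting of the counting is not given in the sources used here, so reads of such pairs cannot be told apart. Per exonic kilobase Junb was the most abundant of the JUN family, at 164 ± 45.7 CPM per kb with TGFb1 and BMP4 and 109 ± 17.4 CPM per kb with inhibitor (SD, n = 2 each).

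Atf3 encodes a bZIP factor induced by stress and also by TGFb in some cells (chr1:191170296-191218039, minus strand). It was at 9.44 and 14.0 CPM with TGFb1 and BMP4, 10.04 and 12.2 CPM with TGFb1, 8.30 and 51.12 CPM with BMP4 and inhibitor, and 34.0 and 90.6 CPM with inhibitor. The 4 TGFb1 libraries stayed below both inhibitor libraries, while the inhibitor pair itself differed by 1.39 on the log2 scale. TGFb1 against inhibitor gave -2.23 ± 0.81 (limma adjusted p = 0.0667) and both ligands -2.18 ± 0.81 (adjusted p = 0.0646). With the replicate block both were called (adjusted p = 0.00964 with TGFb1 and 0.00922 with both ligands). Without replicate 1 or 2 of BMP4 and inhibitor, the adjusted p was 0.0147 and 0.0146 with TGFb1, and 0.0136 each time with both ligands. With median-of-ratios scaling the adjusted p for both ligands was 0.046. BMP4 with inhibitor gave -1.36 ± 0.81 (adjusted p = 0.329), and -2.61 without its replicate 2 (adjusted p = 0.0382).

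Egr1, a zinc finger factor that serum response factor and ELK proteins switch on (chr18:34859823-34864984), was at 79.3 and 121 CPM with TGFb1 and BMP4, 125 and 142 CPM with TGFb1, 108 and 318 CPM with BMP4 and inhibitor, and 214 and 282 CPM with inhibitor. All 4 TGFb1 libraries were below both inhibitor libraries. Both ligands against inhibitor gave -1.32 ± 0.48 (limma adjusted p = 0.0617, 0.00922 with the replicate block and 0.0355 with median-of-ratios scaling), and TGFb1 gave -0.88 ± 0.48 (adjusted p = 0.184, and 0.0445 with the block). Without replicate 1 or 2 of BMP4 and inhibitor these 2 comparisons passed as well, with adjusted p of 0.00793 and 0.0078 for both ligands and 0.0333 and 0.0329 for TGFb1. Against BMP4 with inhibitor, both ligands gave -0.91 ± 0.48 (adjusted p = 0.201, 0.0482 with the block, and 0.0144 without replicate 1 of BMP4 and inhibitor). The list of EGR1 paralogues and corepressors also holds Sp1, which is neither. Of its genes 5 of 7 were tested. With both ligands and with TGFb1, 0 rose and 3 fell, namely Egr3, Nab1 and Sp1. Of all tested genes 27.6% were higher and 18.4% lower with both ligands, and 20.0% and 20.0% with TGFb1. With the replicate block 1 rose and 4 fell with both ligands, where 35.2% of tested genes were higher and 23.7% lower. With TGFb1 the block gave 1 higher and 3 lower, where 26.7% were higher and 26.4% lower. The paralogues ran in opposite directions. Egr2 was at 5.15 and 25.6 CPM with TGFb1 and BMP4, 5.50 and 20.1 CPM with TGFb1, 0.70 and 3.498 CPM with BMP4 and inhibitor, and 2.60 and 3.05 CPM with inhibitor. All 4 TGFb1 libraries were above the other 4, and the log2 fold change against inhibitor was 1.74 ± 0.85 with both ligands (limma adjusted p = 0.134) and 1.62 ± 0.85 with TGFb1 (adjusted p = 0.171). Egr3, the other paralogue tested, was at 0.30 and 1.75 CPM with TGFb1 and BMP4, 0.40 and 1.099 CPM with TGFb1, 6.00 and 7.90 CPM with BMP4 and inhibitor, and 49.0 and 31.0 CPM with inhibitor. Egr3 fell in all 3 comparisons with inhibitor, by -4.402 ± 0.42 with both ligands (adjusted p = 0.000538), -4.54 ± 0.42 with TGFb1 (adjusted p = 0.000828) and -2.34 ± 0.42 with BMP4 and inhibitor (adjusted p = 0.0239). The last call was lost without replicate 1 of BMP4 and inhibitor or without either inhibitor library. Nab1, a corepressor that binds EGR proteins, fell by 0.59 with both ligands (adjusted p = 0.00444).

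Myc, the growth-driving factor (chr15:61985391-61990374, plus strand), was at 93.2 and 73.4 CPM with TGFb1 and BMP4, 91.9 and 75.0 CPM with TGFb1, 113 and 208 CPM with BMP4 and inhibitor, and 217 and 310 CPM with inhibitor. The groups did not overlap except for the 2 with TGFb1, and BMP4 with inhibitor lay between those and inhibitor. Myc fell by a log2 fold change of -1.63 ± 0.32 with TGFb1 (limma adjusted p = 0.00881) and -1.64 ± 0.32 with both ligands (adjusted p = 0.0071), each against inhibitor. The call with TGFb1 was lost without inhibitor replicate 2 (-1.38, adjusted p = 0.0596), and the call with both ligands held with each of the 8 libraries left out. Between both ligands and TGFb1 alone the difference was -0.0053, with a 95% interval from -0.76 to 0.75. In that comparison 0 of 10 members were called by limma with or without the block, where 2.01% of tested genes were called (6.93% with the block), and 1, Fosb, had an unadjusted p under 0.05. For BMP4 with inhibitor against inhibitor Myc gave -0.75 ± 0.32 (adjusted p = 0.188), and -1.19 without replicate 2 of BMP4 and inhibitor (adjusted p = 0.0425). Against BMP4 with inhibitor, both ligands gave -0.89 ± 0.32 (adjusted p = 0.0801, and 0.0225 without replicate 1 of BMP4 and inhibitor) and TGFb1 gave -0.88 ± 0.32 (adjusted p = 0.0906, and 0.0266 without it). The test of whether the BMP4 difference depended on TGFb1 gave an interaction of 0.75 ± 0.45 for Myc (adjusted p = 0.398). It called 0 of 10 members by limma with or without the block, where 1.29% of tested genes were called (6.90% with the block), and 0 had an unadjusted p under 0.05.

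**Figure D3:**
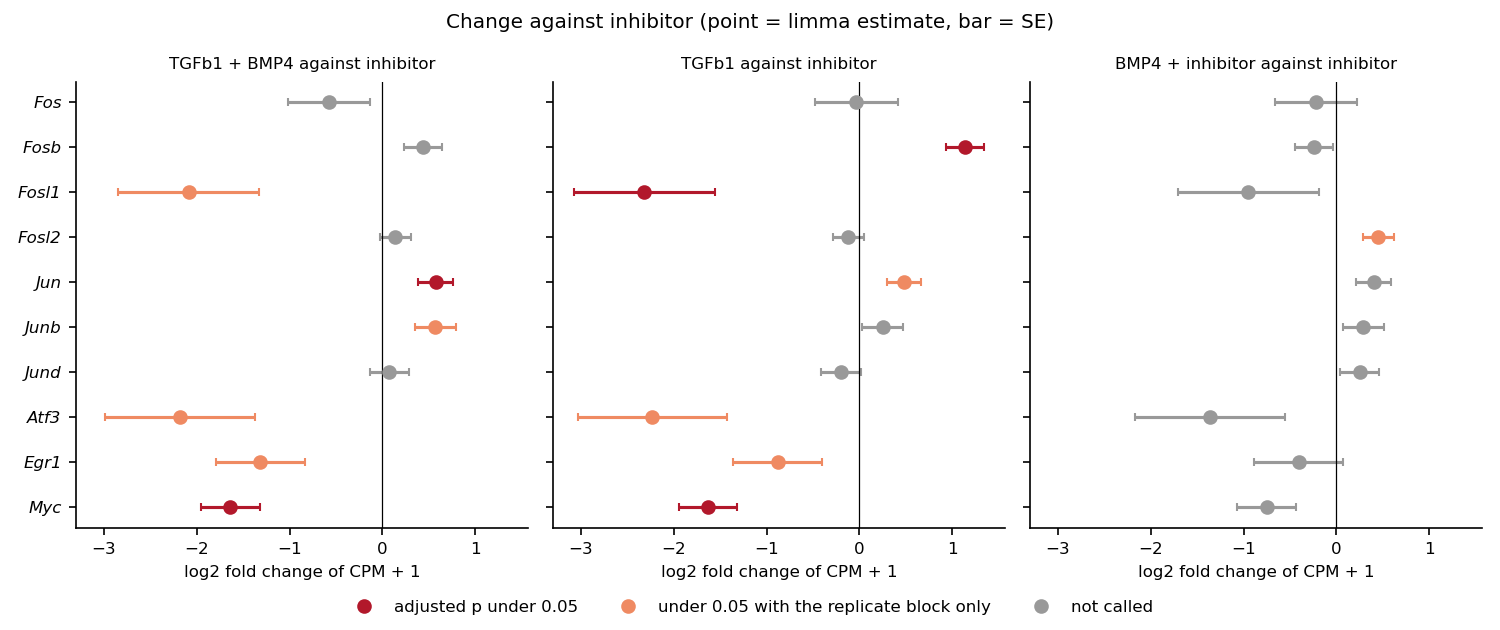
Log2 fold change of CPM + 1 against inhibitor for the 10 genes with TGFb1 and BMP4, with TGFb1, and with BMP4 and inhibitor (points, limma estimates, bars, SE). Dark red marks an adjusted p under 0.05, orange one under 0.05 with the replicate block alone, and grey neither. Myc is at -1.64 and -1.63 in the 2 TGFb1 comparisons, and Fosb is at 1.14 with TGFb1.

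Genes known to be driven by MYC were read from a list of 30 that serve ribosome assembly, nucleotide and polyamine synthesis and the cell cycle. Counts of this and the following lists are to be read against all tested genes, of which 27.6% were called higher and 18.4% lower with both ligands, 20.0% and 20.0% with TGFb1, and 5.49% and 2.91% with BMP4 and inhibitor. With TGFb1 against inhibitor 1 rose and 25 fell, with a median log2 fold change of -1.34 where the median over all tested genes was -0.0077. With both ligands 1 rose and 25 fell, with a median of -1.40 where that of all genes was 0.13. BMP4 with inhibitor gave 1 higher and 2 lower, with a median of -0.75 (all genes 0.016), while the replicate block gave 2 higher and 20 lower. Cad, which starts pyrimidine synthesis, was at 51.3 and 54.5 CPM with TGFb1 and BMP4, 51.12 and 62.2 CPM with TGFb1, 58.9 and 93.0 CPM with BMP4 and inhibitor, and 197 and 181 CPM with inhibitor. It fell in all 3 comparisons, by -1.82 ± 0.22 with both ligands (adjusted p = 0.00118), -1.73 ± 0.22 with TGFb1 (adjusted p = 0.00207) and -1.34 ± 0.22 with BMP4 and inhibitor (adjusted p = 0.0177), a call lost without either inhibitor library. Fbl, which encodes the nucleolar methyltransferase fibrillarin, was at 34.1 and 29.7 CPM with TGFb1 and BMP4, 29.0 and 34.3 CPM with TGFb1, 39.4 and 62.01 CPM with BMP4 and inhibitor, and 82.1 and 91.6 CPM with inhibitor. Rrp12, which exports ribosomal subunits, and Pa2g4, another gene of the list, fell with TGFb1 by -1.78 ± 0.26 and -1.12 ± 0.16 (adjusted p = 0.00355 and 0.00292). The 1 gene that rose, Tfrc, the transferrin receptor, was named after its values were seen. The counts of calls depended on single libraries. With TGFb1, 12 genes were called without TGFb1 replicate 1 and 11 without inhibitor replicate 2, of 26. With both ligands, 17 were called without replicate 1 of TGFb1 and BMP4 and 11 without inhibitor replicate 2. For BMP4 with inhibitor, 22 were called without its replicate 2 and 0 or 1 without any other library.

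On a list of the MAX network, 11 of 12 genes were tested. It holds partners and competitors of MYC at MAX, and also Mlxip and Mlxipl, which pair with MLX instead. Max itself was at 99.1 and 94.8 CPM with TGFb1 and BMP4, 106 and 103 CPM with TGFb1, 96.7 and 105 CPM with BMP4 and inhibitor, and 112 and 89.5 CPM with inhibitor, so the other groups lay within the inhibitor range. With both ligands 5 rose and 1 fell, with TGFb1 4 rose and 1 fell, and with BMP4 and inhibitor 3 rose and 0 fell. Mlxip was among those that rose with both ligands and with TGFb1, and Mlxipl was the 1 that fell with both ligands. Mxd4, which competes with MYC for MAX and represses, was at 171 and 159 CPM with TGFb1 and BMP4, 104 and 101 CPM with TGFb1, 154 and 86.4 CPM with BMP4 and inhibitor, and 35.2 and 31.3 CPM with inhibitor. It rose by 2.28 ± 0.25 with both ligands (adjusted p = 0.000856), 1.60 ± 0.25 with TGFb1 (adjusted p = 0.00416) and 1.77 ± 0.25 with BMP4 and inhibitor (adjusted p = 0.0117). Mxd1, a repressor of the same kind that is known from differentiating keratinocytes, rose by 1.31 ± 0.24 with TGFb1 (adjusted p = 0.00699). Mycl, a paralogue of Myc, ran opposite to it, at 145 and 106 CPM with TGFb1 and BMP4, 222 and 166 CPM with TGFb1, 110 and 57.6 CPM with BMP4 and inhibitor, and 26.5 and 16.4 CPM with inhibitor. Its change was 2.51 ± 0.36 with both ligands (adjusted p = 0.00242), 3.14 ± 0.36 with TGFb1 (adjusted p = 0.00161) and 1.88 ± 0.36 with BMP4 and inhibitor (adjusted p = 0.0298). Of the 5 calls with TGFb1, 3 were made without TGFb1 replicate 1 or without either inhibitor library. Of the 3 with BMP4 and inhibitor, 1 was made without its replicate 1 and 0 without either inhibitor library.

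Atf3 belongs to the stress response under ATF4, the factor that amino acid shortage and unfolded proteins switch on. Of 15 listed genes of this response, 0 rose and 10 fell with TGFb1 (median -1.29), and 0 rose and 10 fell with both ligands (median -1.13). BMP4 with inhibitor gave 0 higher and 1 lower (median -0.68), and 8 lower with the replicate block. Asns, which makes asparagine, was at 58.0 and 70.9 CPM with TGFb1 and BMP4, 67.2 and 101 CPM with TGFb1, 235 and 434 CPM with BMP4 and inhibitor, and 484 and 484 CPM with inhibitor. Both TGFb1 groups were below all other libraries, and Asns fell by -2.90 ± 0.31 with both ligands (adjusted p = 0.000832) and -2.54 ± 0.31 with TGFb1 (adjusted p = 0.00193). Slc7a11, the cystine transporter, fell by -4.41 ± 0.57 with both ligands (adjusted p = 0.00162) and -4.48 ± 0.57 with TGFb1 (adjusted p = 0.0022). Phgdh, the first enzyme of serine synthesis, fell by -3.21 ± 0.48 and -3.14 ± 0.48 in the same order (adjusted p = 0.00278 and 0.00408). With TGFb1, 5 genes were called without TGFb1 replicate 1 and 4 without inhibitor replicate 2. With both ligands, 5 were called without replicate 1 of TGFb1 and BMP4 and 4 without inhibitor replicate 2. For BMP4 with inhibitor, 5 were called without its replicate 2 and 0 without any other library.

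**Figure D4:**
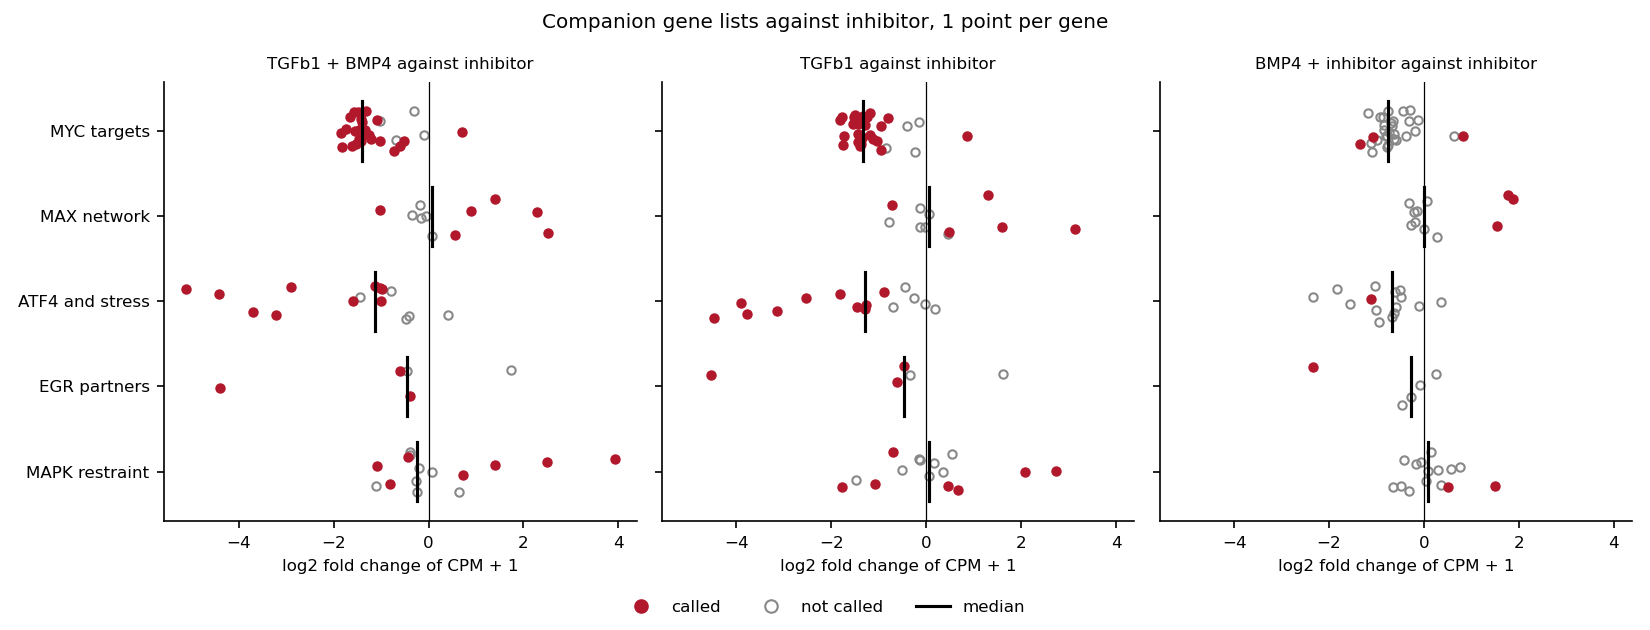
Log2 fold change of CPM + 1 against inhibitor for genes of 5 lists, 1 point per tested gene, filled red where the limma adjusted p is under 0.05, with a bar at the list's median. MYC targets have medians of -1.40 with TGFb1 and BMP4, -1.34 with TGFb1 and -0.75 with BMP4 and inhibitor, and genes of the ATF4 and stress list have medians of -1.13, -1.29 and -0.68 in that order.

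The signal path to these genes was read from kinases, SRF, ETS factors and further genes that act on Fos and Jun. Beside these stood the phosphatases and inhibitors that restrain MAP kinases, and 36 other immediate early genes. Of the 35 tested immediate early genes, 13 rose and 7 fell with both ligands, 12 rose and 7 fell with TGFb1, and 6 rose and 3 fell with BMP4 and inhibitor, beside shares of all tested genes of 27.6% higher and 18.4% lower, 20.0% and 20.0%, and 5.49% and 2.91%. With the replicate block 15 rose and 12 fell with both ligands, 14 rose and 9 fell with TGFb1, and 9 rose and 4 fell with BMP4 and inhibitor. Ctgf, a matrix protein gene induced by TGFb, was at 171 and 357 CPM with TGFb1 and BMP4, 135 and 224 CPM with TGFb1, 9.94 and 8.94 CPM with BMP4 and inhibitor, and 1.15 and 1.25 CPM with inhibitor. It rose by 6.82 ± 0.37 with both ligands (adjusted p = 0.000126) and by 6.32 ± 0.37 with TGFb1 (adjusted p = 0.000224). Klf4, a factor of suprabasal differentiation, fell by -2.45 ± 0.20 with both ligands (adjusted p = 0.000372) and -1.94 ± 0.20 with TGFb1 (adjusted p = 0.0012). With TGFb1 the 19 calls became 10 without TGFb1 replicate 1, 12 without inhibitor replicate 1 and 10 without inhibitor replicate 2. For BMP4 with inhibitor the 9 became 2 without its replicate 1 or without either inhibitor library.

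Of the 15 phosphatases and inhibitors of MAP kinase signalling, 4 rose and 3 fell with both ligands, 4 rose and 3 fell with TGFb1, and 2 rose and 0 fell with BMP4 and inhibitor (4 and 2 with the replicate block). The list mixes genes that restrain ERK with phosphatases of JNK and p38, and members of each kind moved in either direction. Among those that restrain ERK, Dusp4, a nuclear phosphatase, rose by 2.499 ± 0.41 with both ligands (limma adjusted p = 0.00394), and Dusp7, a cytoplasmic one, fell by -1.08 ± 0.15 with TGFb1 (adjusted p = 0.00287). Dusp10, a phosphatase of JNK and p38, was at 54.4 and 42.0 CPM with TGFb1 and BMP4, 22.5 and 18.1 CPM with TGFb1, 11.99 and 5.20 CPM with BMP4 and inhibitor, and 2.30 and 2.10 CPM with inhibitor. It rose by 3.93 ± 0.35 with both ligands (adjusted p = 0.000438) and 2.73 ± 0.35 with TGFb1 (adjusted p = 0.00215). Dusp8, another JNK phosphatase, fell by -1.08 ± 0.16 with both ligands (adjusted p = 0.00272) and -1.77 ± 0.16 with TGFb1 (adjusted p = 0.000806). Without inhibitor replicate 2 the 7 calls with TGFb1 became 4. The 2 with BMP4 and inhibitor became 1 without either library of TGFb1 and BMP4 and 0 without its replicate 1, either TGFb1 library or either inhibitor library. The list of kinases, SRF and ETS factors also holds Mkl1, Mkl2, Fbxw7, Rfwd2 and Itch, which are none of these. Some of its calls are theirs. Of its 22 genes, 8 rose and 3 fell with both ligands, 4 rose and 4 fell with TGFb1, and 1 rose and 1 fell with BMP4 and inhibitor. The shares of all tested genes were 27.6% higher and 18.4% lower, 20.0% and 20.0%, and 5.49% and 2.91%. With the replicate block the list's counts were 8 and 4, 7 and 5, and 1 and 3. Elk3, an ETS factor that binds the Fos promoter with SRF, was at 119 and 117 CPM with TGFb1 and BMP4, 131 and 103 CPM with TGFb1, 42.9 and 20.6 CPM with BMP4 and inhibitor, and 17.7 and 17.7 CPM with inhibitor. It rose by 2.67 ± 0.31 with both ligands (adjusted p = 0.00109) and 2.65 ± 0.31 with TGFb1 (adjusted p = 0.00163). The 11 calls of that list with both ligands became 7 with median-of-ratios scaling or without either TGFb1 library, 3 without replicate 2 of TGFb1 and BMP4, and 5 and 4 without inhibitor replicates 1 and 2. The 8 calls with TGFb1 became 1 and 5 without TGFb1 replicates 1 and 2, and 2 and 4 without inhibitor replicates 1 and 2. The 2 with BMP4 and inhibitor became 1 without its replicate 1 or either TGFb1 library, and 0 without either inhibitor library.

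Of 29 tested AP-1 target genes of epithelium and matrix turnover, 9 rose and 9 fell with both ligands, 10 rose and 4 fell with TGFb1, and 3 rose and 0 fell with BMP4 and inhibitor, beside shares of all tested genes of 27.6% higher and 18.4% lower, 20.0% and 20.0%, and 5.49% and 2.91%. With the replicate block 11 rose and 12 fell with both ligands, 13 rose and 8 fell with TGFb1, and 7 rose and 5 fell with BMP4 and inhibitor. Plau, which encodes urokinase, was at 67.5 and 57.5 CPM with TGFb1 and BMP4, 111 and 98.2 CPM with TGFb1, 28.6 and 22.9 CPM with BMP4 and inhibitor, and 10.8 and 9.20 CPM with inhibitor. It rose by 2.53 ± 0.16 with both ligands (adjusted p = 0.000188) and 3.26 ± 0.16 with TGFb1 (adjusted p = 0.000139). Mmp9, a matrix protease, rose by 6.76 ± 0.47 with both ligands (adjusted p = 0.000223). Sprr1a, a cornified envelope gene, was at 469 and 371 CPM with TGFb1 and BMP4, 918 and 1163 CPM with TGFb1, 1624 and 1525 CPM with BMP4 and inhibitor, and 1206 and 1120 CPM with inhibitor. It fell by -1.48 ± 0.17 with both ligands (adjusted p = 0.0011). With TGFb1 the 14 calls became 9 without TGFb1 replicate 1, and 7 and 8 without inhibitor replicates 1 and 2. The 3 with BMP4 and inhibitor became 1 without its replicate 1 or either inhibitor library, and 6 without its replicate 2.

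How far the 2 libraries of a group lay apart differed among the 10 genes. In BMP4 and inhibitor, replicate 2 was above replicate 1 by 2.49 log2 units for Atf3, 2.44 for Fosl1, 1.55 for Egr1, 1.40 for Fos and 0.87 for Myc. The first 4 of these exceed 1.03, the 95th percentile of the absolute difference over all 16180 tested genes in that group, where the median was 0.24. Fosb, Fosl2, Jun, Junb and Jund differed there by 0.19 or less in either direction. In the same pair the fibroblast markers were at 65.1 and 263 CPM, the skeletal muscle markers at 60.2 and 249 CPM, the mitochondrial transcripts at 4139 and 6555 CPM, and 10 heat shock genes at 2083 and 1855 CPM in replicates 1 and 2. Their part in these differences was not tested.

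**Figure D5:**
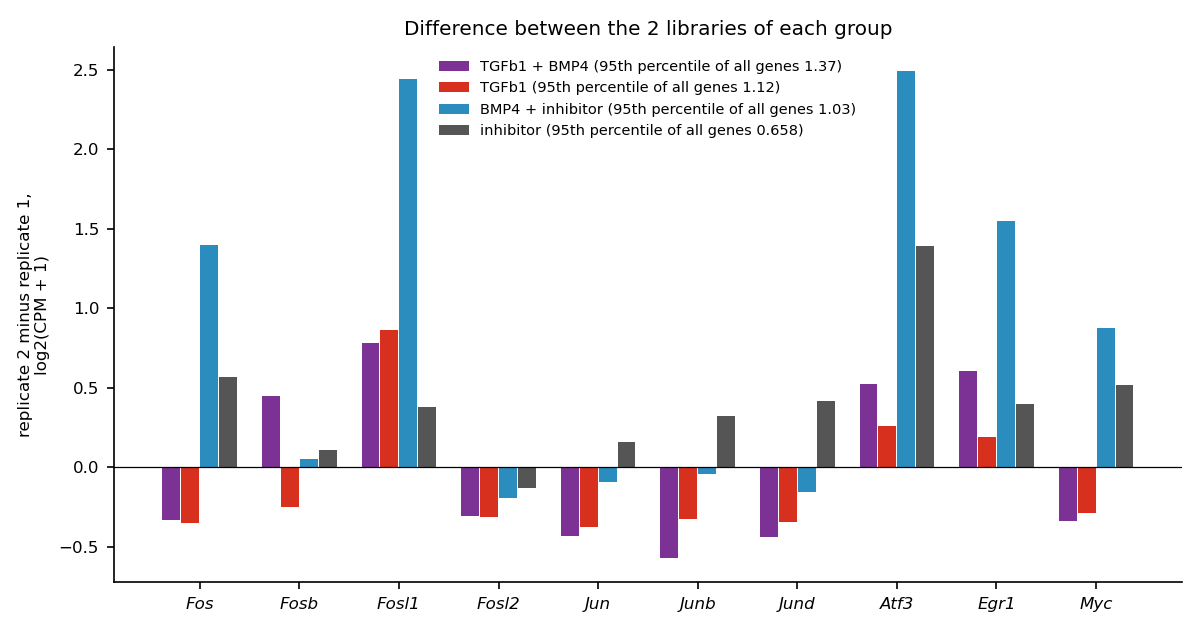
Difference between replicate 2 and replicate 1 in log2(CPM + 1) for the 10 genes, 1 bar per group. In BMP4 and inhibitor, Atf3 (2.49), Fosl1 (2.44), Egr1 (1.55) and Fos (1.40) are beyond the 95th percentile of all tested genes (1.03), which the legend gives for each group. With inhibitor, Atf3 (1.39) is beyond that group's percentile (0.658) too.

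By the pattern over the 8 libraries, the genes most like each member were taken from 10899 genes at a mean of 5 CPM or more, by Pearson's r of log2(CPM + 1), as a description. The closest to Myc were G3bp1 (r = 0.9944), Wdr46 (0.9929) and Spout1 (0.9895). The closest to Fosb were Dram2 (0.9804), Fggy (0.9797) and Il1rap (0.9768), to Fosl1 Glce (0.9902), Snhg1 (0.9882) and Yrdc (0.9880), and to Atf3 Trmt61a (0.9868), Gabpb1 (0.9859) and Tmem11 (0.9857). Egr1 was closest to St3gal6 (0.9852), Asnsd1 (0.9701) and Nr4a1 (0.9644), which is an immediate early gene as well. Fosl2 was closest to D17Wsu92e (0.9893), and Jun to Mir328 (0.9770) and its overlapping antisense gene Junos (0.9758). These 8 points share the 4 treatments, so genes that follow the treatments alike score high.

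In the authors' deposited table, which tests each gene once over all groups, 1 of the 10 members had an FDR under 0.05, where 8.79% of the 52636 genes did. That was Fosb, with an FDR of 0.0262 and deposited log2 fold changes of 0.40 for both ligands, 1.31 for TGFb1 and -0.33 for BMP4. Myc had an FDR of 0.104 in the authors' deposited table, with log2 fold changes of -1.79, -1.67 and -0.78 in that order. The share of 8.79% is over all 52636 deposited genes, of which 16180 passed the filter here, as all 10 members did. It is therefore not like the shares of tested genes given above.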

How the data were processed

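Bulk RNA of 8 libraries was analysed. The submitters' processing notes name, without roles, STAR 2.5.3a, Cell Ranger 3.1.0, HTSeq, edgeR, GRCm38 and mm10. No source used here gives the strand setting or filters of the counting. The whole numbers in the deposited table are a score: by their values, reads scaled to totals of 20011215 to 20013233 per library and rounded up. The deposited CPM values are these divided by their total. The deposited log2 fold changes, p-values and FDR are the authors' own and were used only as quoted.

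The test was limma 3.58.1 in R 4.3.3 (trend), for genes that reached 1 CPM in 2 or more libraries, on log2(CPM + 1), two-sided, with all 8 libraries, group as the only term and 4 residual degrees of freedom. Adjustment was by Benjamini-Hochberg over 16180 genes, separately in the 7 comparisons, and calls were made at 0.05. Adding 1 to CPM understates changes of low genes. The planned test was kept, since the values are not counts. The same steps were tested on simulated data. Same-numbered libraries deviated together from their group means (correlations 0.599, 0.324, 0.381, 0.491, 0.524 and 0.738 over the 6 pairs of groups), with the numbers taken from the sample titles, which do not say what they share. The fit with a replicate block is therefore given where it changes the call of a member or moves a list's count by over 1.5 times. Gene positions and exonic lengths came from GENCODE mouse M21 on GRCm38, matched by ID for 52403 genes (99.56%).

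The 10 members and the 10 companion lists (195 genes, 189 tested) were chosen with earlier results of these data known. A few genes stand on 2 lists. From each list up to 4 called genes per comparison could be named, by smallest adjusted p, and any gene of a list of 12 or fewer. Genes that stood on a list without being of its named kind are also given, as are Ivl and Lor as members of the suprabasal sum. Promoter motifs were searched on both strands. No GC, length or depth correction was made. Alternatives were median-of-ratios scaling, no filter, a pseudocount of 0.1, the replicate block, the compared groups alone and each library left out.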

Additional observations from a re-analysis of the deposited data

How the results depend on the processing

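The replicate block raised the number of tested genes called from 1360 to 3502 with BMP4 and inhibitor, from 326 to 1121 with both ligands against TGFb1, from 3779 to 5764 with TGFb1 against BMP4 with inhibitor, and from 208 to 1117 for the interaction. The compared groups alone gave 806, 0 and 2235 for the first 3 of these and 2507 instead of 4556 for both ligands against BMP4 with inhibitor. No filter gave 751, 80 and 27 for BMP4 and inhibitor, both ligands against TGFb1, and the interaction. Of the 10 members, the block called 1 instead of 0 with BMP4 and inhibitor, 6 instead of 3 with TGFb1, 6 instead of 2 with both ligands, 3 instead of 1 with both ligands against BMP4 with inhibitor, and 2 instead of 1 with TGFb1 against BMP4 with inhibitor, where a pseudocount of 0.1 also gave 2. The compared groups alone gave 5 with TGFb1, 4 with both ligands and 0 with both ligands against BMP4 with inhibitor. Median-of-ratios scaling gave 4 and 0, and no filter 1 and 0, in the last 2 of these. Of the 41 member fold changes followed, the block changed no other call than those given above.

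With 1 library left out, genes called ranged from 170 to 2246 with BMP4 and inhibitor, 3079 to 6528 with TGFb1, 4429 to 7533 with both ligands, 12 to 313 with both ligands against TGFb1, 2433 to 3888 with both ligands against BMP4 with inhibitor, 1552 to 3518 with TGFb1 against BMP4 with inhibitor, and 0 to 557 for the interaction. Members called ranged in that order from 0 to 3, 1 to 5, 1 to 4, 0 to 0, 0 to 3, 1 to 4 and 0 to 0. Some uncalled log2 fold changes turned direction. For BMP4 with inhibitor, Fos ranged from -0.92 to 0.48, Fosl1 from -2.17 to 0.27 and Egr1 from -1.18 to 0.37. With TGFb1, Fos ranged from -0.31 to 0.25, Fosl2 from -0.27 to 0.037 and Jund from -0.41 to 0.0053. With both ligands, Fosl2 ranged from -0.014 to 0.30 and Jund from -0.15 to 0.30, and Jund was -0.061 with median-of-ratios scaling. Both ligands against TGFb1 gave Myc from -0.18 to 0.17. Groups of 2 libraries, with a lone library assumed to vary like the other groups, limit all of these. The causes were not tested.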

Other observations

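Of 23 tested bZIP factors outside the 10 members, many of which can pair with FOS, JUN or ATF proteins, 3 rose and 9 fell with both ligands, where 27.6% of all tested genes were higher and 18.4% lower. With TGFb1 2 rose and 9 fell, where 20.0% were higher and 20.0% lower, and with BMP4 and inhibitor 1 rose and 1 fell, where 5.49% were higher and 2.91% lower. With the replicate block these were 3 and 13, 2 and 14, and 2 and 6. Nfe2l2, the oxidative stress factor NRF2, was at 208 and 184 CPM with TGFb1 and BMP4, 168 and 190 CPM with TGFb1, 323 and 372 CPM with BMP4 and inhibitor, and 433 and 425 CPM with inhibitor. It fell by -1.13 ± 0.12 with both ligands (limma adjusted p = 0.000851) and -1.26 ± 0.12 with TGFb1 (adjusted p = 0.000967). Atf5, which ATF4 is known to induce, fell by -1.59 ± 0.24 with both ligands (adjusted p = 0.00301) and -2.05 ± 0.24 with TGFb1 (adjusted p = 0.00174). Maf, a large MAF factor of keratinocyte differentiation, rose by 1.80 ± 0.23 with TGFb1 (adjusted p = 0.00205). With TGFb1 the 11 calls became 6 without TGFb1 replicate 1 or without inhibitor replicate 2. With both ligands the 12 became 5 without replicate 1 of TGFb1 and BMP4, and 7 without either inhibitor library. For BMP4 with inhibitor the 2 became 6 without its replicate 2, 1 without inhibitor replicate 1, and 0 without its replicate 1 or inhibitor replicate 2.

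Of 10 tested heat shock genes, which can rise when tissue is handled, 3 rose and 2 fell with both ligands, 2 rose and 1 fell with TGFb1, and 1 rose and 3 fell with BMP4 and inhibitor. All tested genes were called in 46.0%, 40.0% and 8.41% in that order, so the counts in both TGFb1 comparisons were near or below the share of all genes. Dnajb1, a cochaperone, rose by 0.76 ± 0.22 with TGFb1 (limma adjusted p = 0.0325) and by 0.72 ± 0.22 with both ligands (adjusted p = 0.0335). Hspd1, the mitochondrial chaperonin that is also on the MYC target list, fell by -1.19 ± 0.23 with TGFb1 (adjusted p = 0.00876) and -1.42 ± 0.23 with both ligands (adjusted p = 0.00364). The 3 calls with TGFb1 became 1 with median-of-ratios scaling or without inhibitor replicate 1, and 0 without TGFb1 replicate 1 or inhibitor replicate 2. The 5 with both ligands became 2 without replicate 1 of TGFb1 and BMP4, and 1 and 3 without inhibitor replicates 1 and 2. The 4 with BMP4 and inhibitor became 1 without its replicate 1, 2 without any of the 4 TGFb1 libraries and 0 without either inhibitor library.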
